A study of Zea mays with 12 samples.

Results

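In the maize leaf, 74 gene models were highest in the maturing section in both of the cell types that share C4 photosynthesis, bundle sheath (BS) and mesophyll (M), out of 110005 gene models in the table. They were selected on the measured values. In BS and in M the mean at maturing had to be at least 10 FPKM (a count of fragments set against transcript length and against all fragments mapped in the library) and at least 2.5 times both the mean at the sink-source transition (SST) and the mean at mature, and the maturing means of BS and M had to lie within 2-fold of each other. The maturing peak and the near equality of BS and M at that stage are therefore how the genes were chosen. Both are given as descriptions, without a test.

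The 12 libraries came from 6 groups of 2: SST BS, SST M, maturing BS, maturing M, mature BS and mature M. Cells of the inbred Mo17 were cut by laser microdissection from acetone-fixed 3rd leaves of seedlings 9 days old, grown in a cycle of light and dark, at -1, 4 and 9 cm from the completed sink-source transition, the last being the leaf tip. The labels call these leaf sections 4, 9 and 14 and give Mo17 for each library, while the study's methods name B73 leaf sections as well. The RNA was amplified through 1 round before sequencing, and the gene models are those of B73. The labels do not say whether the 2 libraries of a group came from separate plants, so the errors and p-values cover the spread between libraries, which may be technical.

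Leaf blades of grasses mature from base to tip, so sections along 1 blade form a developmental series. At the sink-source transition a leaf stops importing sugar and begins to feed the plant. In mature C4 leaves M cells fix CO2 first and pass 4-carbon acids inward to BS cells, where CO2 is released to Rubisco.

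By their cell markers the libraries matched their labels, though M transcripts were found in the BS libraries as well. The summed FPKM of 4 BS genes (PEPCK, NADP-ME, ssu1 and Rubisco activase) was 8833 to 29989 in the BS libraries and 683 to 2290 in the M libraries, while 4 M genes (PepC, MDH, PPDK and carbonic anhydrase) summed to 9057 to 21933 in BS and 23667 to 46392 in M. The M sum was mostly PPDK, with 21274 of 21933 FPKM in the first mature BS and 37101 of 38757 FPKM in the first mature M library. PepC, MDH and carbonic anhydrase each had a higher mean in M than in BS at each stage. The part of M transcripts captured with BS cells in the near equality of BS and M was not tested. The epidermal gene gl1 lay between 0.252 and 3.76 FPKM, and 4 models of vascular genes (sut1, cesa10 and 2 of cesa11, of which 1 was at 0 throughout) summed to 177 and 158 FPKM in SST BS and 70.6 and 69 FPKM in SST M, to 337 and 309 FPKM in maturing BS and 43.6 and 35 FPKM in maturing M, and to 81.4 and 109 FPKM in mature BS and 56.4 and 55 FPKM in mature M. The sum was thus highest in maturing BS, through sut1, a sucrose transporter of the phloem path (means of 108, 287 and 40.7 FPKM in SST, maturing and mature BS), while cesa10, a cellulose synthase, was lowest there in BS (59.4, 36.5 and 54.5 FPKM). In M the sum was lowest at maturing. It was mostly cesa10 there (means of 62.5, 35.9 and 47.7 FPKM in SST, maturing and mature M), which the study describes as equal in BS and M. The part of vascular cells in the BS peaks was not tested. The table holds no read counts. Low values sat on a grid set by single fragments, and from its spacing the depth of the 4 maturing libraries came to 1 to 1.02 relative to the first of them, that of the 4 SST libraries 0.279 to 0.434 and that of the 4 mature libraries 0.379 to 0.527. The maturing libraries were thus on average 2.83 times as deep as SST and 2.28 times as deep as mature libraries. The part of this depth in the selection of the 74 genes was not tested.

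Of all gene models, 47572 were above 0 in some library and 5040 averaged at least 10 FPKM in both maturing groups. Within 2-fold between the cell types were 3754 of these, and the 74 genes make up 1.97% of them. The same rule applied to the other stages gave 255 genes with a peak at SST and 312 with a peak at mature. The 74 genes fell into 3 sets: 30 were above 0 in some mature library, 10 were listed at 0 in all 4 mature libraries but above 0 at SST, and 34 were listed at 0 in all 8 SST and mature libraries. A reference gene (RefSeq) matched 15 of the 74, which is 20.3%, against 51.4% of the genes peaking at SST and 57.7% of those peaking at mature. All 15 were in the first set. The share listed at 0 in all 8 libraries of the other stages was 45.9% for the maturing peak, 5.1% for SST and 11.2% for mature. These shares were not tested.

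**Figure D1:**
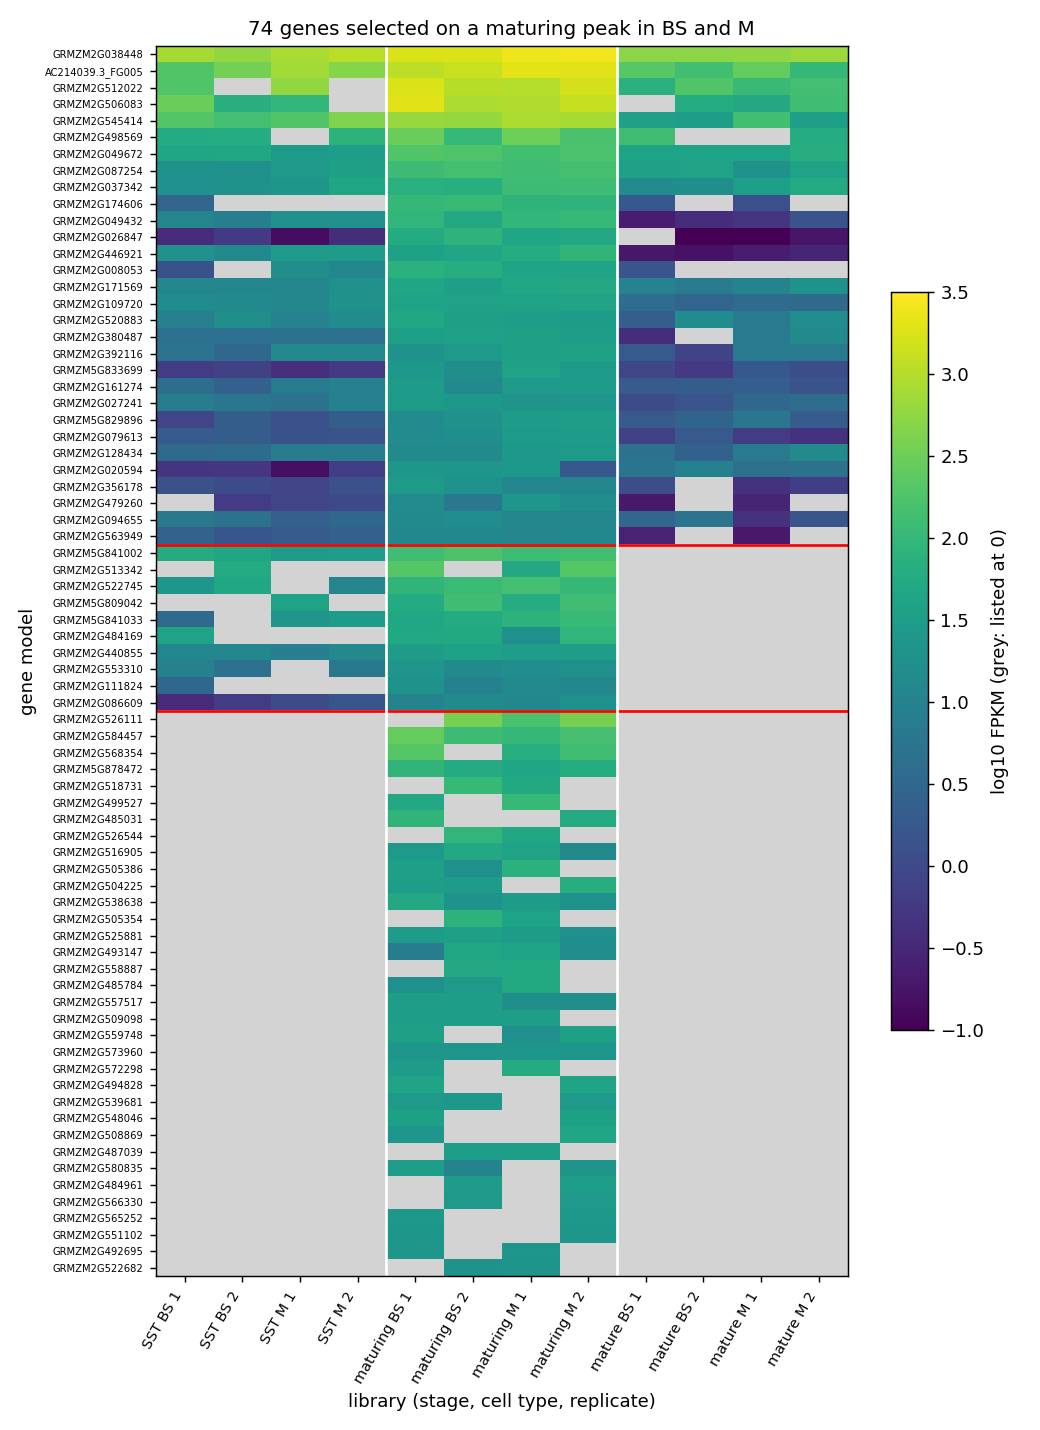
Values of the 74 genes (rows, in order of maturing mean within each set) in the 12 libraries (columns: stage, cell type and replicate), as log10 FPKM by colour, with grey for values listed at 0. Red lines part the 30 genes above 0 at mature, the 10 at 0 at mature and above 0 at SST, and the 34 at 0 in all 8 SST and mature libraries; in the last set many maturing libraries are grey too.

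The genes that can be named by function come from the first set. GRMZM2G087254 is aprl2, one of the maize genes named for their likeness to the reductase of adenosine phosphosulfate, an enzyme of sulfate assimilation. Its transcript was at 20.3 and 18.5 FPKM in SST BS and 26.4 and 35.9 FPKM in SST M, at 122 and 144 FPKM in maturing BS and 132 and 148 FPKM in maturing M, and at 37 and 39.4 FPKM in mature BS and 20.7 and 38.6 FPKM in mature M. The lowest maturing library was far above the highest of the 8 others. The maturing means were 133 FPKM in BS and 140 FPKM in M, 6.86 and 4.5 times SST, and 3.48 and 4.73 times mature.

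The 7 other aprl genes matched in the table, a list drawn up after the values were seen, took varied courses. Of these, aprl3 (GRMZM2G042582) was highest at maturing in both cell types, at 29.4 and 25.1 FPKM in BS and 34.1 and 32.8 FPKM in M, though at SST it was already at 19.6 and 19.6 FPKM in BS and 25.5 and 29.6 FPKM in M. A further 1 was highest at SST in both cell types and 1 at mature in both, and 4 had their highest means at different stages in BS and M.

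GRMZM2G079613 is annotated with Arabidopsis SDI1, SULPHUR DEFICIENCY-INDUCED 1, known in that plant as a gene induced when sulfur is short and as a repressor of glucosinolate synthesis. It was at 1.89 and 2.14 FPKM in SST BS and 1.38 and 1.42 FPKM in SST M, at 15.1 and 17.6 FPKM in maturing BS and 27.9 and 30.4 FPKM in maturing M, and at 0.763 and 1.84 FPKM in mature BS and 0.64 and 0.463 FPKM in mature M. The 4 maturing values stood apart from the other 8, none of which passed 2.14 FPKM, and M was 1.78 times BS at maturing. A second gene with the same annotation, GRMZM2G123986, was too low for the selection and also outside the 2-fold limit between cell types, with maturing means of 0.614 FPKM in BS and 2.92 FPKM in M. Its values at maturing were 0.387 and 0.84 FPKM in BS and 2.92 and 2.91 FPKM in M, against at most 0.564 FPKM in the 4 SST and 0.193 FPKM in the 4 mature libraries.

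GRMZM5G833699, hsp82, codes for a chaperone of the HSP90 family, proteins that fold and keep ready many signalling proteins and receptors and that accumulate in heat. It was at 0.627 and 0.784 FPKM in SST BS and 0.405 and 0.593 FPKM in SST M, at 24.7 and 17.6 FPKM in maturing BS and 38.9 and 28.3 FPKM in maturing M, and at 0.897 and 0.558 FPKM in mature BS and 1.76 and 1.2 FPKM in mature M. The smallest of its ratios was the largest among the 16 annotated genes: the maturing mean was 30 times SST and 29.1 times mature in BS, and 67.3 times SST and 22.7 times mature in M.

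Most other genes with a heat shock name took another course. Of 15 such genes, a list drawn up after the values were seen, 10 were highest at mature in both cell types, 1 at maturing in both, 1 at SST in both, 2 at different stages in BS and M, and 1 was at 0 throughout. The nearest relatives by name, HSP90-1 (GRMZM2G024668) and HSP90-2 (GRMZM2G012631), were near level between SST and maturing. HSP90-2 was at 35.5 and 36.5 FPKM in SST BS, 32 and 27.8 FPKM in maturing BS and 117 and 117 FPKM in mature BS, and HSP90-1 at 21.5 and 19 FPKM in SST M, 20.4 and 20.4 FPKM in maturing M and 98.9 and 233 FPKM in mature M. The single gene besides hsp82 that was highest at maturing in both cell types, hsp18a (GRMZM2G404249), reached 0.457 FPKM at most. Among the 10 highest at mature, GRMZM2G458208 reached 0.344 FPKM at most.

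**Figure D2:**
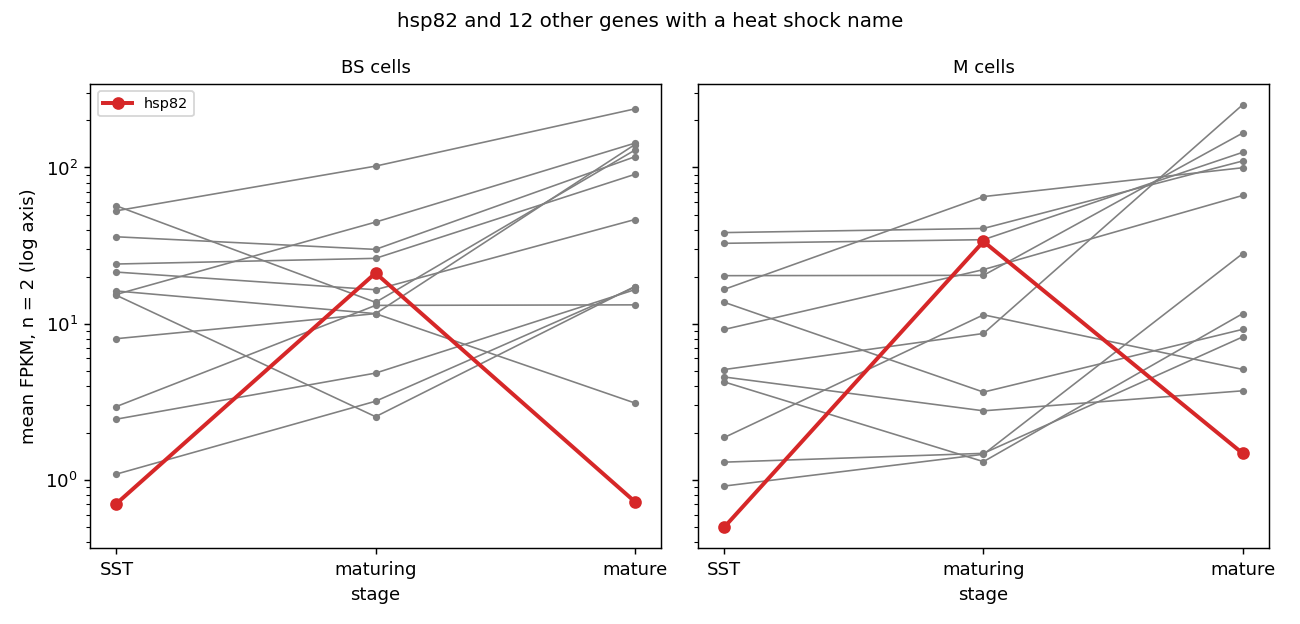
Mean FPKM (n = 2, log axis) of hsp82 in red and of 12 other genes with a heat shock name in grey, those that passed 1 FPKM in some library, at SST, maturing and mature in BS (left) and M (right). hsp82 lies lowest of all at SST in both cell types, at 0.705 FPKM in BS and 0.499 FPKM in M, climbs to 21.1 and 33.6 FPKM at maturing and falls back to 0.727 and 1.48 FPKM, while most grey lines end at their highest point.

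The other named reference genes have no function in the tables used here. GRMZM2G049672 had the highest level of the annotated genes, with 187 and 181 FPKM in maturing BS and 140 and 165 FPKM in maturing M. At SST it was at 44.8 and 47.5 FPKM in BS and 28.2 and 33.3 FPKM in M, and at mature at 40.3 and 41.2 FPKM in BS and 41.2 and 62.7 FPKM in M. GRMZM2G037342 was higher in M than in BS in each pair of maturing libraries, at 70.6 and 67.5 FPKM in BS and 124 and 126 FPKM in M, and its 8 other values ran from 15.1 to 55.3 FPKM.

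The remaining named reference genes were lower or less even between libraries. GRMZM2G356178 sat at the edge of the limit between cell types, with 28.3 and 19.3 FPKM in maturing BS and 12.2 and 11.7 FPKM in maturing M, an M/BS ratio of 0.503, and its 8 other values reached 1.31 FPKM at most. GRMZM2G479260 had 14.6 and 6.32 FPKM in maturing BS and 23.1 and 16.7 FPKM in maturing M, with none of the other 8 above 0.991 FPKM. GRMZM2G020594, named after its values were seen, was uneven between the maturing M libraries: 24 and 24.2 FPKM in maturing BS and 25.3 and 1.69 FPKM in maturing M, against 0.483 and 0.518 FPKM in SST BS, 0.15 and 0.685 FPKM in SST M, 5.63 and 9.66 FPKM in mature BS and 4.55 and 5.02 FPKM in mature M. Its second maturing M library lay below every mature library.

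The 5 highest of the 74 matched no reference gene and were picked for their level. GRMZM2G038448 was at 1763 and 1827 FPKM in maturing BS and 2392 and 2521 FPKM in maturing M, and its 8 other values ran from 524 to 1067 FPKM, so it was an abundant transcript at each stage. AC214039.3_FG005 reached 1125 and 1314 FPKM in maturing BS and 2050 and 1978 FPKM in maturing M, against 192 to 744 FPKM at SST and 100 to 276 FPKM at mature. GRMZM2G545414 had 645 and 611 FPKM in maturing BS and 898 and 822 FPKM in maturing M. GRMZM2G512022 and GRMZM2G506083 were high but uneven: GRMZM2G512022 had 187 and 0 FPKM in SST BS and 580 and 0 FPKM in SST M, beside 1739 and 1047 FPKM in maturing BS and 984 and 1617 FPKM in maturing M.

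The sharpest peak among genes above 0 at mature, singled out after the values were seen, was that of GRMZM2G026847. It had 59.5 and 83.9 FPKM in maturing BS and 43.9 and 51.7 FPKM in maturing M, while none of the 4 SST libraries passed 0.58 FPKM and none of the 4 mature libraries 0.188 FPKM. The maturing mean was 152 times SST in BS and 182 times SST in M. The table gives it no name.

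Across the 40 genes that were not at 0 in all 8 other libraries, the mean of the 4 maturing libraries ran from 12.2 to 2126 FPKM with a median of 50.4 FPKM. In 35 of them all 4 maturing libraries lay above all 8 others. The selection on these same values favours that order, and its share among all genes was not computed, so the count is a description only. In the other 5, GRMZM2G020594, GRMZM2G128434, GRMZM2G484169, GRMZM2G498569 and GRMZM2G513342, a maturing library was at or below a library of another stage. M was the higher cell type at maturing in 23 of the 40, and the median M/BS ratio was 1.05. Of the 40, 20 were above 0 in all 12 libraries.

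The ratios of the genes beside the threshold were close, though their levels were not. Just inside were GRMZM2G128434, annotated as a putative DNA-binding protein, whose smallest ratio of a maturing mean over an SST or mature mean was 2.502, and GRMZM2G520883 at 2.517. Just outside were GRMZM2G171311 at 2.468, with maturing means of 61.4 FPKM in BS and 75.5 FPKM in M, and GRMZM2G039268 at 2.464, with maturing means of 12 FPKM in BS and 16.2 FPKM in M, which was listed at 0 in both mature groups.

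For the 34 genes listed at 0 at SST and mature, reads could mostly be estimated. Each had a maturing mean of 10.5 to 229 FPKM, with a median of 24.9 FPKM, yet none of them matched a reference gene. For 33 of the 34 the values were whole multiples of a step that can be read as 1 fragment, within a tolerance of 0.06 read. Since the step taken was the largest that could be fitted, the reads are the fewest that the values allow. Over the 4 maturing libraries together these 33 had between 2 and 26 reads with a median of 3. Just 2 reads made up 10 of them, 20 had at most 4 reads and 27 at most 10. For the 40 other genes no step could be fitted with at most 15 reads a library, so their reads are unknown. Single reads may weigh heavily in some of these too. GRMZM2G484169, for example, had 40.3 and 0 FPKM in SST BS and 18.4 and 91.7 FPKM in maturing M.

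These were gene models in which a single read weighed heavily. In the first maturing BS library 1 read was worth 6.18 to 67.3 FPKM, with a median of 25.7 FPKM, and in 30 of the 33 it was worth at least 10 FPKM, the level that the selection asked for. GRMZM2G558887, for example, had 0 and 52.2 FPKM in maturing BS and 53.4 and 0 FPKM in maturing M, or 1 read in each of 2 libraries. GRMZM2G573960 had 22.9, 22.4, 22.9 and 22.8 FPKM in the 4 maturing libraries, which look closely replicated and stand for 1 read each. Among the 34, 17 were at 0 in 2 of the 4 maturing libraries, 9 in 1 and 8 in none.

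The selection also turned on single reads at SST and mature. For 26 of the 33, 1 read in any of these 8 libraries would have ended the selection. For 5 a read in some of them would have done so, and for 2 a read in none. These 2 were GRMZM2G584457, at 272 and 121 FPKM in maturing BS and 98.8 and 148 FPKM in maturing M from 26 reads, and GRMZM2G526111, at 0 and 373 FPKM in maturing BS and 164 and 381 FPKM in maturing M from 17 reads. GRMZM5G878472, the 1 gene without a fitted step, was at 87.3 and 59.3 FPKM in maturing BS and 44 and 60.5 FPKM in maturing M. No fold is given for these genes, and their zeros are not evidence that the transcripts were absent.

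**Figure D3:**
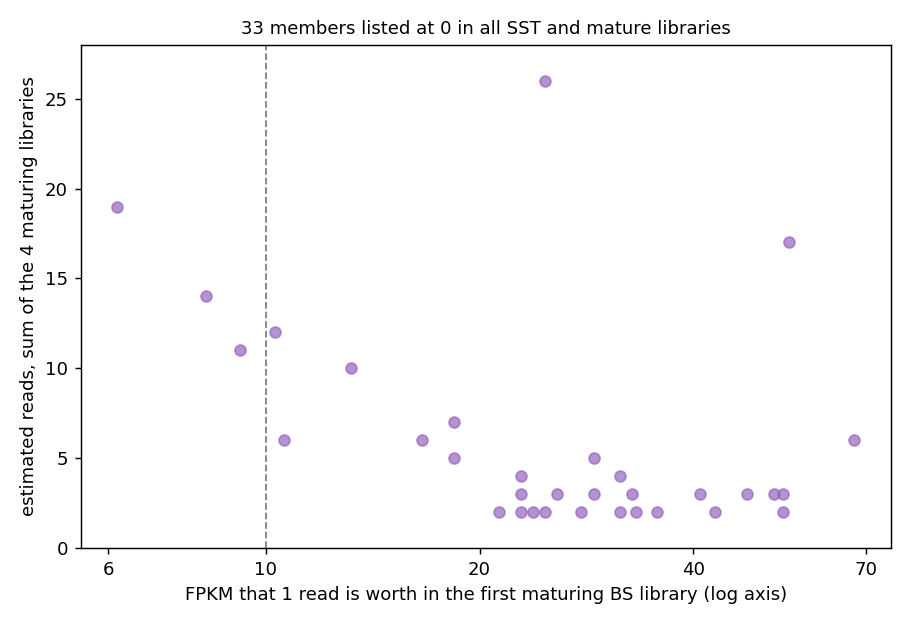
Estimated reads summed over the 4 maturing libraries (vertical axis) against the FPKM that 1 read is worth in the first maturing BS library (horizontal log axis) for 33 genes listed at 0 at SST and mature; points may overlap. Right of the dashed line, where 30 of the 33 lie, 1 read is worth at least 10 FPKM, and 27 of the 33 had at most 10 reads.

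The selection set no direction between SST and mature, so the mature level was compared with SST within each cell type, by limma on scaled log2 values over the 32548 genes tested. The 34 genes at 0 at both stages entered the test through their maturing level alone, have a difference of 0 by construction and could not be called, so 40 of the 74 carry these comparisons. At an adjusted p below 0.01, 9 genes were lower at mature than at SST in BS, where 9.91% of all genes tested were lower, and 10 were lower in M, where 8.97% were. The 9 are 12.2% of the 74 and 22.5% of the 40, and the 10 are 13.5% of the 74 and 25% of the 40. Of the 30770 tested genes that were above 0 in some SST or mature library, as these 40 were, 10.5% were lower at mature in BS and 9.48% in M. None of the 40 was higher at mature than at SST in limma, in BS, where 12.1% of all genes tested were higher, or in M, where 10.5% were. Of the same 30770 genes, 12.8% were higher in BS and 11.1% in M. Without adjustment 16 of the 40 had a p below 0.05 in BS and 21 in M, in either direction, which is 40% and 52.5% of them, beside 41.9% and 40.4% of all genes tested. All genes tested include those at 0 in all SST and mature libraries, which the 40 do not, so the bases differ. The 40 were set apart after their values were seen, and no test of these shares was made.

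GRMZM2G446921, a reference gene without a function in the tables, had the clearest fall of the annotated genes. It was at 0.198 and 0.168 FPKM in mature BS and 0.228 and 0.288 FPKM in mature M, against 18.7 and 13.7 FPKM in SST BS and 26.5 and 31.2 FPKM in SST M. The log2 difference, mature minus SST, was -5.07 (SE 0.24) in BS with an adjusted p of 4.8e-06 and -5.71 (SE 0.24) in M with an adjusted p of 4e-06 in limma. All mature libraries were below all SST libraries. At maturing it had 37.9 and 43.7 FPKM in BS and 60.4 and 88.9 FPKM in M, means of 2.52 and 2.59 times SST. Both ratios lie just above the 2.5-fold threshold, and it was selected in 7 of the 12 settings that left out 1 library.

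GRMZM2G049432 followed the same order. It had 0.226 and 0.384 FPKM in mature BS and 0.488 and 1.44 FPKM in mature M, against 11.3 and 8.26 FPKM in SST BS and 18.1 and 18.2 FPKM in SST M, and 91.2, 52.4, 96.5 and 103 FPKM in the maturing libraries. The 95% interval of the log2 difference was -4.95 to -3.06 in BS, with an adjusted p of 0.00019, and -4.86 to -2.97 in M, with an adjusted p of 0.00025 in limma. The reference gene to which it belongs covers 2 other models. GRMZM2G123794 was at or near 0, at 0.229 FPKM at most in any library. GRMZM2G049370 was lower at mature than at SST too, by a log2 difference of -3.09 in BS (SE 0.48, adjusted p 0.0016) and -3.48 in M (SE 0.48, adjusted p 0.001). GRMZM2G049370 had 8.62 and 6.54 FPKM in maturing BS and 10.7 and 12.1 FPKM in maturing M.

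GRMZM2G109720 (csu471) fell less. It was at 3.99 and 2.94 FPKM in mature BS and 3.73 and 3.64 FPKM in mature M, against 15.4 and 13.5 FPKM in SST BS and 12.3 and 19.6 FPKM in SST M, log2 differences of -1.81 (SE 0.24) and -1.88 (SE 0.24) with adjusted p of 0.00067 and 0.00063 in limma. Mature and SST libraries did not overlap in either cell type.

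A pair of annotated genes passed the test in 1 cell type. GRMZM2G027241 had 1.07 and 1.55 FPKM in mature BS, against 7.71 and 5.91 FPKM in SST BS (log2 difference -2.01, SE 0.34, adjusted p 0.0025), and 3 and 4.08 FPKM in mature M, against 4.85 and 9.55 FPKM in SST M (-0.79, SE 0.34, adjusted p 0.12). GRMZM2G161274 had 2.22 and 1.41 FPKM in mature M, against 6.88 and 9.05 FPKM in SST M (-1.89, SE 0.38, adjusted p 0.0064), and 1.94 and 2.15 FPKM in mature BS, against 4.28 and 2.43 FPKM in SST BS (-0.44, SE 0.38, adjusted p 0.43). The difference between the cell types in this change was itself tested and did not pass in limma, with an adjusted p of 0.21 for GRMZM2G027241 and 0.18 for GRMZM2G161274. The call of GRMZM2G161274 was lost in 10 of the 12 fits that left out 1 library, all but those without a maturing BS library (log2 difference -2.15 to -1.63, adjusted p up to 0.05), and that of GRMZM2G027241 without either SST BS library or the first mature BS library (-2.25 to -1.77 over the 12 fits, adjusted p up to 0.024).

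Unannotated genes made up the rest of the calls, and are named here after their values were seen. GRMZM5G841002 was listed at 0 in all 4 mature libraries, against 59.2 and 44 FPKM in SST BS and 28.3 and 32.3 FPKM in SST M, with 134, 175, 128 and 135 FPKM at maturing, and passed the test in both cell types (adjusted p 5.1e-07 in BS and 1.1e-06 in M, limma). GRMZM2G440855 was likewise listed at 0 in all 4 mature libraries, against 11.8 and 12.3 FPKM in SST BS and 8.4 and 13.1 FPKM in SST M (adjusted p 3.6e-06 and 5.5e-06), with 31, 37.6, 33.7 and 33.6 FPKM at maturing. No fold is given against a group at 0, where the fitted value depends on the pseudocount. Both calls were kept in each fit that left out 1 library.

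GRMZM2G563949 passed in both cell types as well, with 0.279 and 0 FPKM in mature BS and 0.2 and 0 FPKM in mature M, against 2.68 and 1.57 FPKM in SST BS and 1.89 and 2.42 FPKM in SST M (log2 differences -2.53 and -2.73, SE 0.44, adjusted p 0.0027 and 0.0021). Its call in BS was lost without the first SST BS or the second mature BS library (log2 -3.07 to -1.98 over the 12 fits) and its call in M without either SST M or the second mature M library (-3.14 to -2.31). Called in BS and not in M were GRMZM2G380487, described with the cell types, and GRMZM2G522745, at 0 and 0 FPKM in mature BS against 23.3 and 50 FPKM in SST BS, whose call was lost in 10 of 12 such fits, all but those without an SST M library (adjusted p up to 0.052).

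Called in M and not in BS were GRMZM2G008053, GRMZM2G086609 and GRMZM5G841033, all at 0 in both mature M libraries. The difference between the cell types in this change passed the test for none of the genes called in 1 of them. In SST M they had 16.9 and 11.6 FPKM, 1.06 and 1.62 FPKM, and 22.3 and 30.6 FPKM, in that order. The call of GRMZM2G008053 was lost in 8 of the 12 fits without 1 library, namely those without any M library or a maturing BS library (adjusted p up to 0.027), and that of GRMZM5G841033 without any of the SST M or mature M libraries (adjusted p up to 0.015). With the 2 stages of 1 cell type fitted alone, where 2 residual degrees of freedom remain, 1 of the 74 was called in BS and none in M, and of all genes 806 and 0.

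**Figure D4:**
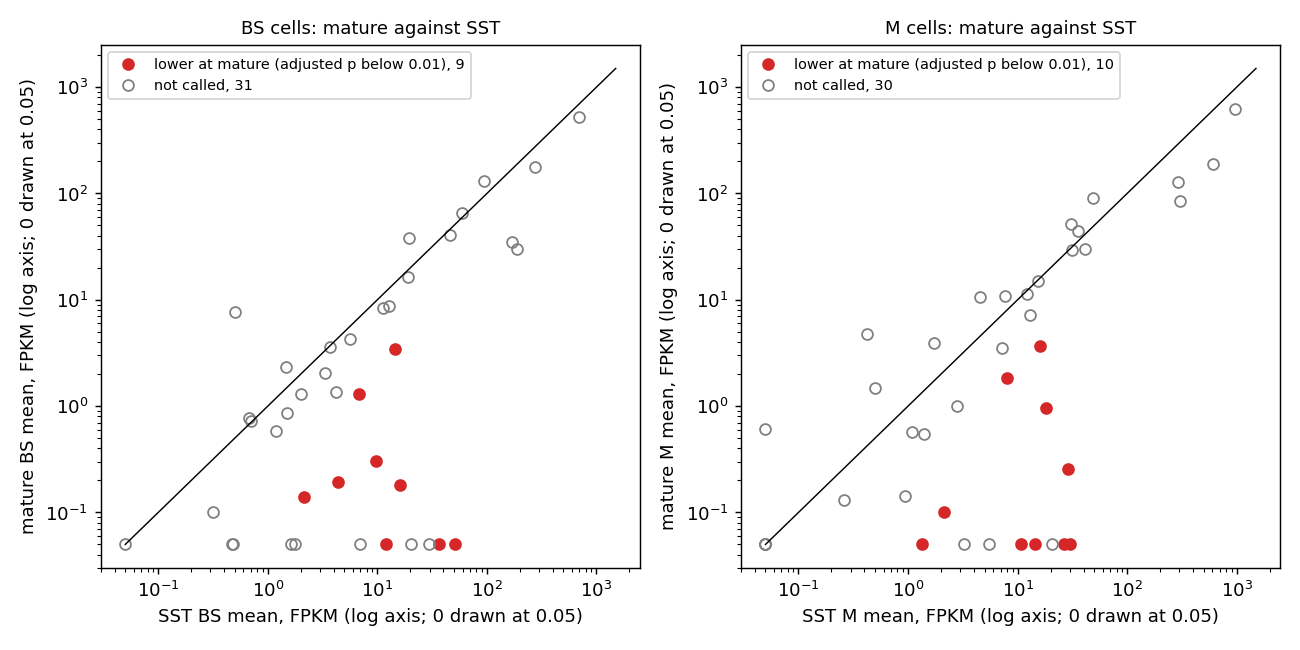
Mean at mature (vertical) against mean at SST (horizontal) of the 40 genes not at 0 in all 8 SST and mature libraries, in BS (left) and M (right), both log axes in FPKM with 0 drawn at 0.05. Red points passed the test, 9 in BS and 10 in M, all below the line of equal levels; grey circles were not called.

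Genes described earlier that did not pass took varied directions. GRMZM2G020594, given above, was higher in all mature than in all SST libraries, with log2 differences of 3.48 (SE 1.01) in BS and 3.10 (SE 1.01) in M and adjusted p of 0.029 and 0.047 in limma. The maturing M libraries, which differ by far for this gene, enter the spread shared over the 6 groups: without either of them the adjusted p was 0.0018 or 0.0019 in BS and 0.0032 in M, with the same differences. For hsp82 (GRMZM5G833699) the difference was 0.15 in BS (95% interval -0.54 to 0.84) and 1.28 in M (0.58 to 1.97, adjusted p 0.013). For aprl2 (GRMZM2G087254) it was 1.15 in BS (0.46 to 1.85, adjusted p 0.019) and 0.00 in M (-0.69 to 0.69). For GRMZM2G079613, the SDI1 gene, it was -0.48 in BS (-1.25 to 0.30) and -0.95 in M (-1.72 to -0.17).

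By group means alone, 32 of the 40 (80%) were lower at mature than at SST in BS and 7 higher, and in M 28 (70%) were lower and 9 higher. Of the 30770 tested genes above 0 in some SST or mature library, 49.6% were lower in BS and 48% in M. The 10 genes set apart for being at 0 in all 4 mature libraries are lower by that choice in at least 1 cell type, and the shares of the 40 are a description without a test. In both cell types 23 of the 40 were lower and 3 higher. In bulk libraries of captured cells a lower level may mean fewer cells with the transcript or less of it in each cell, and these cannot be told apart.

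BS was also compared with M at SST and mature. The selection capped the levels of both cell types at these stages but set no direction between them. Here too the 34 genes at 0 at both stages could not be called. At SST none of the other 40 passed in limma, where 3.08% of all genes tested did in either direction, and 13 of the 40 (32.5%) had an unadjusted p below 0.05, beside 23.2% of all genes tested. At mature 2 of the 40 (5%) passed, both lower in BS than in M, beside 5.72% of all genes tested in either direction. The change of log2 BS/M between SST and mature passed for none of the 40 in limma, where it passed for 0.734% of all genes tested, and 10 of the 40 (25%) had an unadjusted p below 0.05, beside 19.5% of all genes tested. All genes tested include genes at 0 at both stages. Of the 30770 above 0 in some SST or mature library, 3.26% passed at SST, 6.05% at mature and 0.777% for the change. Nothing about the members is read from these counts of 0.

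GRMZM2G392116, a reference gene without a function in the tables, was lower in BS than in M at each stage. It had 1.88 and 0.854 FPKM in mature BS, against 6.96 and 7.32 FPKM in mature M, a log2 difference of -2.24 (SE 0.33, adjusted p 0.004, limma). At SST it had 5.16 and 3.3 FPKM in BS, against 12.9 and 13.2 FPKM in M, a difference of -1.63 (SE 0.33) with an adjusted p of 0.019. At maturing it had 19.4 and 26.1 FPKM in BS and 36.5 and 38.2 FPKM in M. The call at mature was lost in 8 of the 12 fits without 1 library, all but those without an SST BS library, the first maturing BS or the first mature BS library, with a log2 difference of -2.70 to -1.78 and an adjusted p up to 0.028.

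GRMZM2G380487, unannotated and named after its values were seen, was even between the cell types until the tip. It had 4.42 and 4.37 FPKM in SST BS and 4.74 and 4.34 FPKM in SST M, then 34.3 and 38.1 FPKM in maturing BS and 35.9 and 31.4 FPKM in maturing M. At mature it had 0.389 and 0 FPKM in BS, against 7.27 and 14.2 FPKM in M, a log2 difference of -4.70 (SE 0.45, adjusted p 0.0006, limma) that was called in each of the 12 fits without 1 library. With mature BS near 0 the size depends on the pseudocount, at -3.27 with 1 FPKM and -6.64 with 1/100 of the upper quartile. The call was lost where the compared groups were fitted alone. Against SST, both mature BS libraries were lower (log2 difference -3.39, SE 0.45, adjusted p 0.0007) and both mature M libraries were higher (1.24, SE 0.45, adjusted p 0.069). The change of log2 BS/M between the stages was -4.63 (SE 0.63) with an adjusted p that rounds to 0.01 and missed the threshold. It passed under several alternatives, at 0.0086 on the values as deposited, and not under others, at 0.022 with a replicate block.

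**Figure D5:**
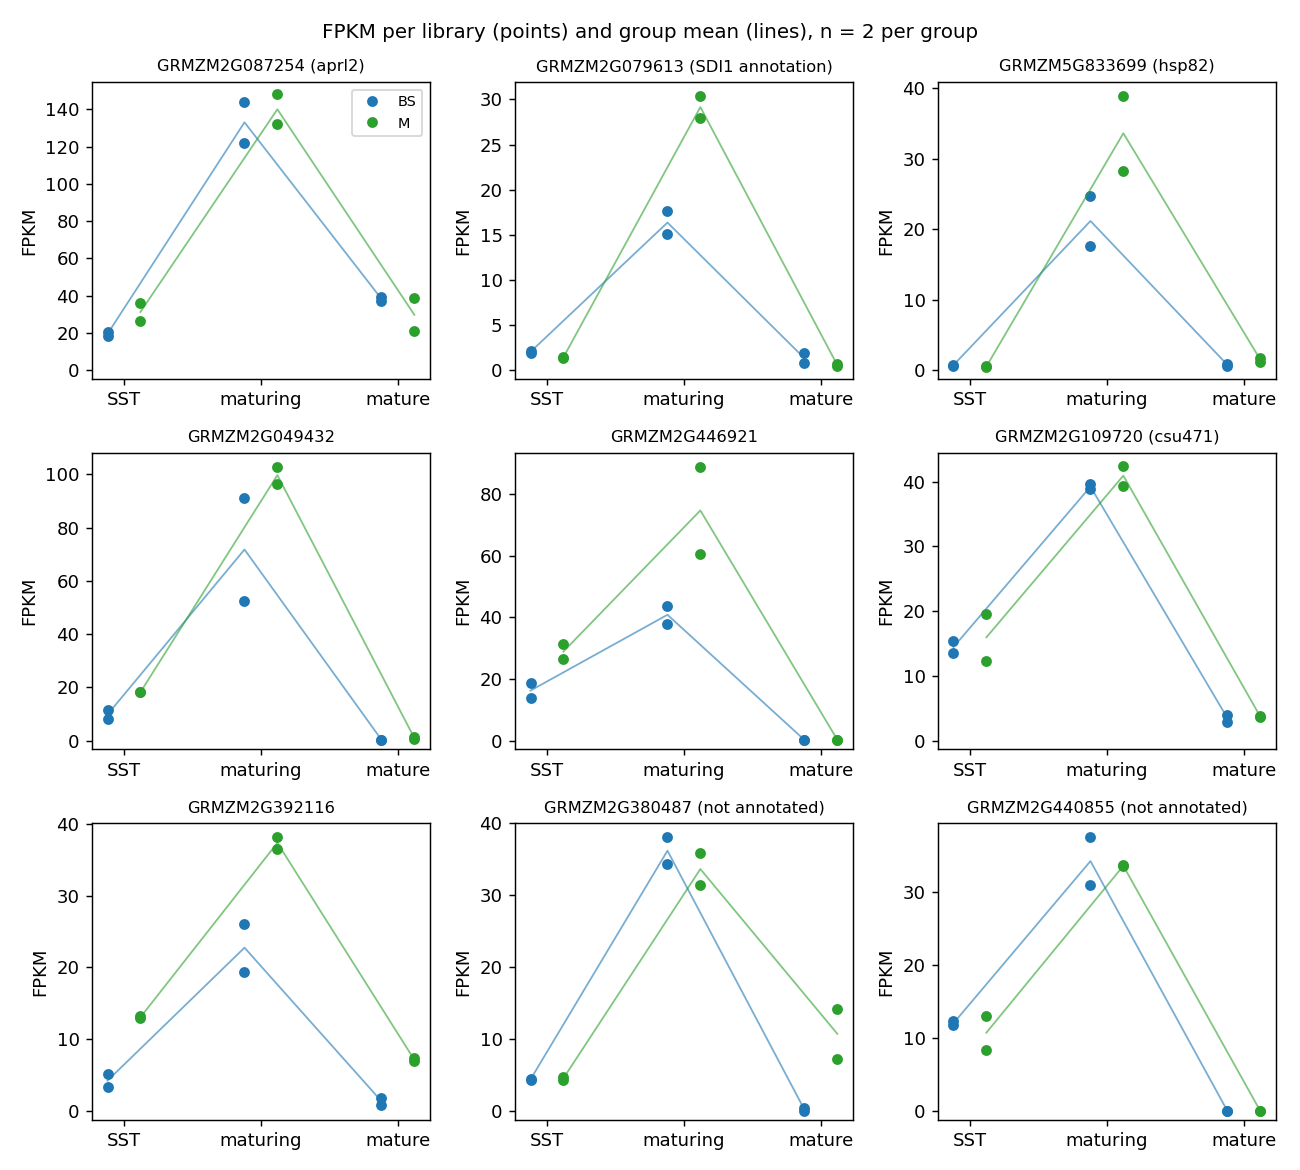
FPKM of 9 genes by stage, with a point for each library (n = 2 per group) and lines through the group means, BS in blue and M in green; vertical axes differ between panels. All 9 were selected on their maturing peak; GRMZM2G446921, GRMZM2G049432, GRMZM2G109720 and GRMZM2G440855 end lower at mature than at SST in both cell types, and GRMZM2G380487 ends at 0.389 and 0 FPKM in BS and 7.27 and 14.2 FPKM in M.

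The planned lists of photosynthesis, C4, stress, clock, hormone and other genes, 17 lists matched by words in gene names or annotations, held none of the 74 genes. Since the reference table gives symbols without descriptions, the lists were short for several classes, with 9 genes for the Calvin cycle and C4 and none for light harvesting, so the absence of the 74 genes from them is not a result.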

How the data were processed

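The deposited table gives FPKM for each gene model in 12 libraries. Per the labels and the study's methods, the authors captured cells by laser microdissection, amplified the RNA through 1 round and made Illumina libraries. The submitters' processing notes name CASAVA 1.3, TopHat2 2.0.10, Cuffdiff 2.1.1 and B73 RefGen_v3, while the methods name an earlier version of the assembly. Which of these the FPKM follow, how fragments shared by near-identical genes were assigned and whether strand was used are not given in the sources used here, so paralogous and overlapping models are uncertain. No coordinates are given.

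The rule was applied to the FPKM as deposited. The members and lists were chosen with earlier results of these data known. Relative depth and reads were estimated from steps of at most 15 reads a library with a tolerance of 0.06 read, so intervals for counting error are not given. For the tests each library's upper quartile was set to 2.56 FPKM, the mean of all 12. Genes averaging 0.256 FPKM or more in some group, 32548 in all, were fitted as log2(value + 0.256 FPKM) (limma 3.58.1 with trend, R 4.3.3, 6 residual and 2.12 prior degrees of freedom), with Benjamini-Hochberg adjustment over all of them and a threshold of 0.01. Fold changes on this scale understate those of low genes. The study's count model was not used, as no counts were at hand. Further software was Python 3.11.15 with NumPy 2.4.6, pandas 2.3.3, matplotlib 3.10.9 and SciPy 1.17.1. Simulated data with known changes were used to test the fit.

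Named were, of the 16 annotated genes, the 10 highest at maturing, the 8 with the largest smallest ratio, up to 3 called in each direction of each contrast, and the 2 genes on each side of the threshold. Others, GRMZM2G020594 among them, were named after their values were seen. Names come from RefSeq (assembly Zm-B73-REFERENCE-NAM-5.0), which matched 15 of the 74, and from the annotation column of the study's gene list, which gave 2. A planned search of promoters for motifs was not run, as no sequences were at hand. The tested alternatives were other scalings, pseudocounts, filters and thresholds, a replicate block, no trend, fits of the compared groups alone and leaving out each library.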

Additional observations from a re-analysis of the deposited data

How the results depend on the processing

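The number of genes selected was 53 to 82 when 1 library was left out (lowest without the second maturing BS library, where 46 of the 74 remained) and 48 at a fold threshold of 4. In alternatives added after seeing the data, it was 43 where all 4 maturing libraries had to lie above all 8 others. It was 47 without the genes estimated at 10 reads or fewer. These 47 include all genes without a read estimate, which were not checked for reads. Of the 74, 18 were selected in all 12 settings without 1 library, 15 of the 40 not at 0 elsewhere and 3 of the 34 at 0 elsewhere. After upper quartile scaling 67 of the 74 remained among 85.

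Members called lower or higher at mature than at SST numbered 16 in BS at an adjusted p below 0.05, 1 in BS and 0 in M where the compared groups were fitted alone, and 6 to 10 in BS and 7 to 10 in M without 1 library. Members differing between BS and M at SST were 2 with a pseudocount of 1 FPKM, 3 at an adjusted p below 0.05 and 0 to 3 without 1 library. At mature they were 0 with the groups alone, 6 at an adjusted p below 0.05 and 1 to 3 without 1 library. The change of log2 BS/M passed for 1 member, GRMZM2G380487, on the values as deposited, with median-of-ratios scaling, with a pseudocount of 1 FPKM, with a filter at 1 FPKM and at an adjusted p below 0.05, and for 0 to 3 without 1 library. Of 21 called pairs of gene and contrast none reversed, and 1 was called under all 22 alternatives. The cause of these moves was not tested.

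Over all genes, fits of the compared groups alone called 0 for BS against M at SST and 0 at mature, 806 for mature against SST in BS, 0 in M and 432 for the change, against 1003, 1863, 7150, 6345 and 239 in the fit of 6 groups. At an adjusted p below 0.05 they were 3386, 4726, 11024, 10432 and 1195. Same-numbered libraries did not deviate together over all genes (correlations -0.04 to 0.02). This cannot exclude that they share plants, since noise between single libraries may hide it. The study describes its stages as coming from the same leaves, and the labels do not say which libraries share a leaf. With a replicate block 0, 2, 11, 11 and 0 members and 706, 1362, 6500, 5731 and 137 genes were called, in the same order. With 2 libraries a group and the SST and mature libraries shallower by the estimate given above, low transcripts there are poorly measured.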
